A study of Mus musculus with 18 samples.

Results

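The genes described here are the cytochrome P450 genes of families 1 to 3 in mouse liver tumors, the families that oxidize drugs, toxins, steroids and other foreign or waste compounds. Members were the protein-coding genes whose symbol has the form Cyp, a family number from 1 to 3, a subfamily letter and a gene number (GENCODE M21), with at least 10 counts summed over the 12 bulk libraries. This took 51 of the 60 protein-coding genes with such symbols, out of 55335 genes in the table. The other 9 were below the minimum: Cyp2b23, Cyp2c66, Cyp2j7, Cyp2j11 and Cyp2j12 had 0 counts, Cyp2w1 had 1, Cyp2d34 had 2, and Cyp2b19 and Cyp2t4 had 7 each. Of the 51 members, 48 passed the filter on low counts and were tested; Cyp2c65, Cyp2j8 and Cyp2j13 were not. The members fall into 14 subfamilies, of which Cyp2c (14 genes), Cyp3a (9), Cyp2d (7) and Cyp2j (5) are the largest.

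The study asked what becomes of liver tumors when the cells that express Prom1 (prominin-1, a surface marker of cells with progenitor traits), are removed. In the chemical model, N-nitrosodiethylamine (DEN), a liver carcinogen, was given to mice aged 14 days (1 mg/kg), followed by repeated carbon tetrachloride (CCl4, 0.2 ml/kg) from an age of 8 weeks. CCl4 was given for 12 weeks before tamoxifen. In the oncogene model, plasmids coding for N-RasV12 and myr-AKT (20 µg each) with a Sleeping Beauty transposase (1.6 µg) were injected into the tail vein. Each of these 2 models had 3 control and 3 depletion libraries of tumor tissue, and 6 single-cell samples of the series were not analysed here.

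The groups compared were therefore: DEN+CCl4 control (replicates 7, 8 and 13), DEN+CCl4 depletion (6, 9 and 10), N-Ras+AKT control (3, 10 and 15) and N-Ras+AKT depletion (6, 11 and 17). In the depletion groups, doses of 4 mg tamoxifen activated a Cre recombinase made from the Prom1 locus, which switched on diphtheria toxin A at Rosa26. Tumors were taken 16 days after the last dose in the DEN+CCl4 model and 6 days after it in the N-Ras+AKT model. The strain entry reads Prom1C-L/+;Rosa26DTA/+ for all 12 bulk libraries, controls included. A tamoxifen dose of 4 mg is also listed for all 12. The design text also speaks of Prom1+/+;Rosa26DTA/+ littermates and of olive oil as a vehicle, so which of these a control library received is not settled by the labels. If controls received olive oil without tamoxifen, the drug and the removal of Prom1 cells cannot be told apart. The models differ in carcinogen, oncogenes and collection day together, and these cannot be told apart in any comparison between models.

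Cytochrome P450 enzymes are heme proteins of the endoplasmic reticulum that take electrons from the reductase Por and insert oxygen into their substrates. In the liver, most enzymes of families 1 to 3 are made by hepatocytes, many of them in the pericentral zone around the central vein, where Wnt signaling is active. Their genes are induced through nuclear and other receptors, the aryl hydrocarbon receptor (Ahr) for Cyp1 genes, Nr1i3 (CAR) for Cyp2b and Cyp2c genes and Nr1i2 (PXR) for Cyp3a genes, and several differ between the sexes under the control of growth hormone. Cyp2e1 is also the enzyme that converts CCl4 and small nitrosamines to their reactive forms.

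Total counts per library ran from 31306617 to 48055812. Levels are given as CPM, the count scaled to a fixed library total after TMM adjustment. Prom1 itself averaged 60.9 ± 16.5 CPM (SD, n = 3) in the N-Ras+AKT controls and 8.16 ± 7.45 after depletion (log2 change -2.90, SE 0.61, adjusted p = 0.00953), and 61.9 ± 14 against 31 ± 12 in the DEN+CCl4 model (log2 change -0.995, SE 0.57, adjusted p = 0.381). The libraries DEN+CCl4 depletion 6 and N-Ras+AKT depletion 17 stood apart from the others on principal components, and results are given with and without them where they decide a call. The 10 hepatocyte markers summed to 87000 to 105900 CPM in the 6 N-Ras+AKT libraries and to 196600 to 309400 CPM in the 6 DEN+CCl4 libraries. Since the samples are bulk tissue, fewer cells of a type and less RNA per cell cannot be told apart. All 12 libraries carried Y-linked transcripts with Xist at 0.0925 to 1.41 CPM, a male pattern; the labels give no sex.

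The members lie in a few tandem arrays, in which neighboring genes are close copies of each other (GRCm38). On chromosome 7, 10 members of the Cyp2s, Cyp2b, Cyp2a, Cyp2g and Cyp2f subfamilies lie between positions 25802475 and 27133660. On chromosome 19, 13 Cyp2c members lie between 39007019 and 40187333, with Cyp2c23 apart at 44005022 to 44029208. The 8 Cyp3a members between 145345279 and 146113287 on chromosome 5, the 7 Cyp2d members between 82370527 and 82794294 on chromosome 15 and the 5 Cyp2j members between 96027534 and 96664154 on chromosome 4 form the other arrays.

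Close copies share reads, and the way the counts were made can split such reads between genes. Of the 50-base windows in each member's transcripts, a median of 9.5% also occurred in another gene. In 16 members more than 25% of windows were shared, and in 8 members, Cyp2f2 among them, none were. Cyp3a41a and Cyp3a41b were nearly inseparable, with 98.6% and 93.5% of windows shared, followed by Cyp2c40 (60.3%), Cyp2c69 (54.3%) and Cyp2c67 (52.8%). Cyp2a4 and Cyp2a5 shared 38.0% and 37.0%, Cyp2b13 27.3%, Cyp2b9 11.2%, Cyp2e1 3.9% and Cyp1a2 4.8%. Subfamily sums, which do not depend on how reads are split within a subfamily, are therefore given beside the single genes. The sums do not settle reads shared with genes outside the members. Such sharing covered 16.2% of windows for Cyp2a5, 15.6% for Cyp2b13 and 11.3% for Cyp2a4.

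The promoters of the Cyp2b and Cyp2a genes are shown because these neighbors on chromosome 7 include near-identical pairs, the members of which had log2 changes of the same sign as each other in each model (RefSeq, GRCm38.p6, plus strand, 250 bases before to 50 bases after the start, 5′ to 3′). RefSeq promoters were matched for 45 of the 51 members. The Cyp2b9 promoter (chr7:26173159-26173458) and the Cyp2b13 promoter (chr7:26061245-26061544) were identical at 298 of 300 bases (99.3%), and capitals mark the 2 positions where they differ. The Cyp2b10 promoter (chr7:25897408-25897707) was identical to Cyp2b9 at 223 of 289 aligned bases (77.2%), and its capitals mark the letters GCGTG, the core bound by the aryl hydrocarbon receptor, on either strand.
Cyp2b9: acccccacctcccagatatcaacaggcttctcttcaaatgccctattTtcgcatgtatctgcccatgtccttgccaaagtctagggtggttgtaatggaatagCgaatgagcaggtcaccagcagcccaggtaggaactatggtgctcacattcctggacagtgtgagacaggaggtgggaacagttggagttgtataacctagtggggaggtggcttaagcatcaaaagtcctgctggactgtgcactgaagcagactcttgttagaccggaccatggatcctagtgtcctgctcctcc
Cyp2b13: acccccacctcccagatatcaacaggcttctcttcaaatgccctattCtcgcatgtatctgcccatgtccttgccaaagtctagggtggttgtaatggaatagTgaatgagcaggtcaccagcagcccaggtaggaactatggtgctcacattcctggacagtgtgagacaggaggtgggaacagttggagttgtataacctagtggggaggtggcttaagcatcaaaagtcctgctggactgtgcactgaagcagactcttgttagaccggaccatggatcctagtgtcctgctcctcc
Cyp2b10: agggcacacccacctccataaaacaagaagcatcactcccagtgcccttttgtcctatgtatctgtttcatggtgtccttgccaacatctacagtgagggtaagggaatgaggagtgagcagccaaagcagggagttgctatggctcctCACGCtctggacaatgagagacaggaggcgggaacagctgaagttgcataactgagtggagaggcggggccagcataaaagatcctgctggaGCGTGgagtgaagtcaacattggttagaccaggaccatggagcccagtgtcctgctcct
The Cyp2a4 promoter (chr7:26306942-26307241) and the Cyp2a5 promoter (chr7:26835089-26835388) were identical at 294 of 299 aligned bases (98.3%), and capitals mark a match to GTTAAT, a half-site of HNF1, and one to CAAAGTCC, a core of HNF4 sites, both factors of the hepatocyte.
Cyp2a4: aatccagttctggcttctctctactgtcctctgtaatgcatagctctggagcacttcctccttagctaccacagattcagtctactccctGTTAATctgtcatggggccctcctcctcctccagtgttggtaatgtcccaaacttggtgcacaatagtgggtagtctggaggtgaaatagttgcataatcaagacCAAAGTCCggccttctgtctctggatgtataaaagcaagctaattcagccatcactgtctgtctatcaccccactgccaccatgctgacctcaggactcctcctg
Cyp2a5: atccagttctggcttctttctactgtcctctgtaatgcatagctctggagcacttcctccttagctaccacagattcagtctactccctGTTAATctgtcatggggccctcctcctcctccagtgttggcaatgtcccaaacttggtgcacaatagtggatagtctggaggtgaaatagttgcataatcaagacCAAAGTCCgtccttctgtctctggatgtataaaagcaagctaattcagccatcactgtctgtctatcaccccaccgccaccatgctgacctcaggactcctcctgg
Both strands were searched, and the 2 motifs do not overlap in either promoter. CAAAGTCC occurred in 12 of the 45 members with a promoter (26.7%), all of the Cyp2a, Cyp2c or Cyp3a subfamilies and several of them close copies, and in 1.42% of the 32851 promoters in the table. GTTAAT occurred in 6 of 45 (13.3%) against 7.1% of all promoters, and GCGTG in 7 of 45 (15.6%), Cyp1a1 and Cyp1b1 among them, against 32.4%. TTCNNNGAA, the STAT motif, was found in 0 of 45 against 8.3% of all promoters. These are matches of letters in a short window and not measured binding.

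Together the members made up 0.79% to 0.877% of all counts in the DEN+CCl4 control libraries and 0.851% to 1.19% in the DEN+CCl4 depletion libraries. In N-Ras+AKT tumors their share was 0.45% to 0.876% for controls and 1.42% to 2.12% for depletion libraries. By this share, which is not TMM-adjusted, the N-Ras+AKT depletion libraries lay above all 9 others. Their mean was 1.71% ± 0.365 against 0.616% ± 0.228 in their controls (SD, n = 3). In summed TMM-adjusted CPM, N-Ras+AKT depletion 6, 11 and 17 had 12670, 14060 and 20210. DEN+CCl4 depletion 6 had 13000 CPM, above N-Ras+AKT depletion 6, so the ranking across models depends on the scaling. Per kilobase of exon, 28 members averaged at least 10 CPM over the 12 libraries. In the DEN+CCl4 controls, Cyp2a4 led this scale at 1939 CPM per kilobase, followed by Cyp2d26 at 435, Cyp2a5 at 376 and Cyp2c70 at 290. In the N-Ras+AKT depletion libraries Cyp2e1 led at 1104, followed by Cyp2a5 at 785 and Cyp3a11 at 750. This order depends on the exon length used. Without division by length, Cyp3a11 had 2788, 2900 and 5771 CPM in these libraries and Cyp2e1 had 1990, 2122 and 3034 CPM.

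**Figure D1:**
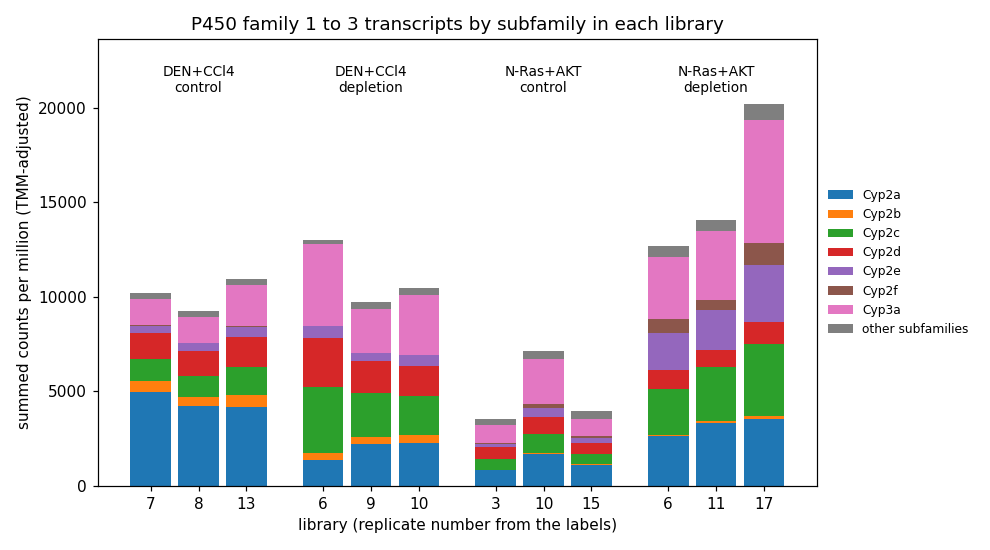
Summed CPM of the members in each of the 12 libraries, split by subfamily (stacked bars, labels under the bars are replicate numbers). Cyp2a sums were between 4197 and 4991 CPM in the DEN+CCl4 controls and between 1369 and 2279 after depletion there, while the N-Ras+AKT depletion bars were the tallest in their model.

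With depletion in N-Ras+AKT tumors the P450 genes rose broadly: 27 of the 48 tested members passed at an adjusted p under 0.05, 25 of them higher and 2 lower. Over all 17013 genes tested, 23.7% passed in this comparison, 12.8% higher and 10.8% lower. The median log2 change of the members was 1.10, and that of all genes was -0.02. In 31 members every depletion library was above every control library and in 2 members below, against 21.4% and 21.5% of all genes (43% in either direction). Cyp1b1 and Cyp3a16 were the 2 members that fell, and with no filter on low counts, or with only the groups compared in the fit, 0 members fell. The call of 17 of the 27 held in every alternative fitted to single genes. For 24 of the 27 the subfamily sum passed in the same direction.

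In the DEN+CCl4 model depletion left most members without a call: 1 of the 48 passed, Cyp2b13, which was lower. Over all genes 0.37% passed, 0.112% higher and 0.259% lower. Without adjustment, 18 members had a p under 0.05, against 18.7% of all genes. Of the members, 13 had all depletion libraries above all controls and 5 had them below, against 11.5% and 16% of all genes (27.5% in either direction). The median log2 change was 0.25 for the members and -0.01 for all genes. DESeq2 called 11 members in place of 1 (7 higher and 4 lower), and limma voom 4 (3 higher and 1 lower); over all genes DESeq2 called 1066 and voom 71, against 63 with edgeR.

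The depletion effects of both models were compared directly as the N-Ras+AKT effect minus the DEN+CCl4 effect. This difference passed for 15 members, 14 in the positive direction and 1, Cyp3a16, in the negative one; over all genes 11.6% passed, 7.98% positive and 3.6% negative. The median difference was 0.52 for the members and -0.03 for all genes. The call of 9 of the 15 held in every alternative fitted to single genes. For 11 of the 15 the subfamily sum passed in the same direction. Between the control tumors of both models, 22 members differed, 9 higher and 13 lower in the N-Ras+AKT controls than in the DEN+CCl4 controls, against 20.8% and 19.8% of all genes, or 40.6% in either direction. In 11 members all N-Ras+AKT controls were above all DEN+CCl4 controls and in 13 below, against 28.4% and 26.1% of all genes (54.5% in either direction). This last comparison, the depletion effects and the difference share control libraries, so their values are given side by side and are not independent of each other.

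**Figure D2:**
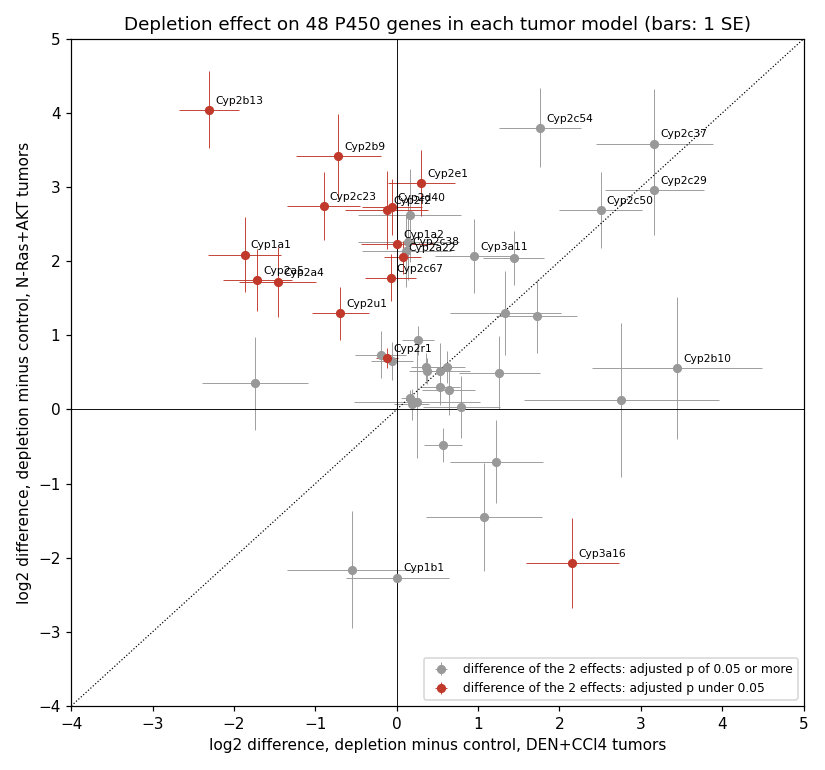
Log2 difference between depletion and control in DEN+CCl4 tumors (x axis) and in N-Ras+AKT tumors (y axis) for the 48 tested members, with bars of 1 SE; the dotted line marks equal effects. The 15 members in red passed the test of the difference between the effects, 14 of them above the line and Cyp3a16 below it.

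Cyp2e1, the pericentral enzyme of ethanol, CCl4 and nitrosamine metabolism, rose in N-Ras+AKT tumors after depletion. It stood at 111, 482 and 264 CPM in N-Ras+AKT controls 3, 10 and 15 and at 1990, 2122 and 3034 CPM in depletion libraries 6, 11 and 17. The groups did not overlap, and the log2 change was 3.06 (SE 0.45, adjusted p = 0.00334). In DEN+CCl4 tumors it stood at 377, 399 and 566 CPM in controls 7, 8 and 13 and at 641, 442 and 571 CPM in depletion libraries 6, 9 and 10. These groups overlapped (log2 change 0.30, SE 0.41, adjusted p = 0.743). The difference between the effects was 2.76 on the log2 scale (SE 0.59, adjusted p = 0.0177), and its adjusted p was 0.0618 when both libraries that stood apart were left out.

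Cyp1a2, a pericentral enzyme of aromatic amines and caffeine, followed the same pattern at a lower level. Its CPM were 20.2, 62.1 and 40.6 in the N-Ras+AKT controls and 127, 187 and 266 after depletion (log2 change 2.24, SE 0.46, adjusted p = 0.00876), with no overlap. Within the DEN+CCl4 model the controls had 117, 94.5 and 111 CPM and the depletion libraries 52.6, 156 and 114 CPM, on both sides of the controls, and the log2 change was 0.00 (SE 0.44). The effects differed by 2.24 (SE 0.64, adjusted p = 0.047). That call was lost without any of 10 of the 12 libraries, all but DEN+CCl4 depletion 9 and N-Ras+AKT control 10, with adjusted p from 0.0521 to 0.119, without both libraries that stood apart (0.132) and with no filter on low counts (0.133). Cyp1a2 was also lower in the N-Ras+AKT than in the DEN+CCl4 controls (log2 -1.39, SE 0.45, adjusted p = 0.0315), a call lost without DEN+CCl4 control 7, 8 or 13 (0.0778, 0.0529 and 0.0728) or N-Ras+AKT control 3 or 15 (0.0894 and 0.0791), or with no filter on low counts (0.0994).

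The other Cyp1 genes, both induced through the aryl hydrocarbon receptor, moved in opposite directions. Cyp1a1, the inducible oxidase of polycyclic hydrocarbons, had 0.181, 0.589 and 0.182 CPM in the N-Ras+AKT controls and 0.956, 1.67 and 1.44 CPM after depletion, a rise from a very low level (log2 2.09, SE 0.51, adjusted p = 0.0148). Its DEN+CCl4 controls had 13.6, 11.6 and 5.18 CPM and the depletion libraries there 1.95, 3.65 and 2.65 CPM, all below the controls without passing with edgeR (log2 -1.87, SE 0.45, adjusted p = 0.0779; DESeq2 0.0024). Between models, the effects differed by 3.96 (SE 0.68, adjusted p = 0.0102), and the N-Ras+AKT controls were below the DEN+CCl4 controls by a log2 of -4.98 (SE 0.53, adjusted p = 7.4e-05). Without N-Ras+AKT control 3 or 15 the rise in that model had adjusted p of 0.0591 and 0.0582.

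Cyp1b1, an enzyme of estrogens and polycyclic hydrocarbons that is found mostly outside hepatocytes, fell instead. It had 13, 22.9 and 14.8 CPM in the N-Ras+AKT controls and 5.74, 4.25 and 0.564 CPM after depletion, with no overlap (log2 -2.27, SE 0.60, adjusted p = 0.0229). In all 6 DEN+CCl4 libraries it lay between 1.46 and 2.75 CPM. The N-Ras+AKT controls thus had more of it than the DEN+CCl4 controls (log2 3.11, SE 0.64, adjusted p = 0.00328). Its fall after depletion was not called without N-Ras+AKT control 10 (adjusted p = 0.054), with no filter on low counts (0.0723) or with only the groups compared (0.0563). Of 10 stellate cell and fibroblast markers 1 rose and 0 fell in the N-Ras+AKT model. Of 10 endothelial markers 3 rose and 0 fell there, where 12.8% of all genes rose. Markers of cholangiocytes fell beside Cyp1b1 in the N-Ras+AKT model, 5 of 10 passing, where 10.8% of all genes fell. Their summed levels were 7256 to 10540 CPM in the controls and 318 to 3605 CPM after depletion. Most of this sum was Spp1 (osteopontin), and the other 9 markers summed to 239 to 366 CPM and 26 to 163 CPM; their part in the result was not tested.

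Cyp2a4 and Cyp2a5 had depletion effects of opposite sign in the 2 models. Cyp2a4, a testosterone hydroxylase that is female-biased in mouse liver, was the most abundant member of the DEN+CCl4 controls with 3584, 3142 and 3384 CPM, and had 445, 1544 and 1676 CPM after depletion there. All 3 depletion libraries were below the controls, without passing with edgeR (log2 -1.46, SE 0.47, adjusted p = 0.142; DESeq2 0.02). In the N-Ras+AKT model it rose from 107, 300 and 273 CPM to 560, 784 and 895 CPM (log2 1.72, SE 0.48, adjusted p = 0.0252). The difference between the effects was 3.18 (SE 0.67, adjusted p = 0.017), and the controls of the models differed by a log2 of -3.89 (SE 0.52, adjusted p = 0.000262). Without N-Ras+AKT control 3, control 15 or depletion 17 the adjusted p of the rise was 0.0719, 0.058 and 0.0864, and with no filter on low counts 0.0777.

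Cyp2a5, the coumarin hydroxylase and near-copy of Cyp2a4, had 1015, 771 and 553 CPM in the DEN+CCl4 controls and 302, 215 and 196 CPM after depletion. The groups did not overlap and the change did not pass with edgeR (log2 -1.71, SE 0.42, adjusted p = 0.0798); it passed without N-Ras+AKT control 3 (0.0364) and with DESeq2 (0.00144). In N-Ras+AKT tumors it rose from 193, 786 and 474 CPM to 1330, 1700 and 1852 CPM (log2 1.75, SE 0.42, adjusted p = 0.0145), a call lost without control 15 (0.0537) or depletion 17 (0.0533), or without both libraries that stood apart (0.0516). The effects differed by 3.46 (SE 0.60, adjusted p = 0.0104). Unlike Cyp2a4, its control levels overlapped between the models (log2 -0.69, SE 0.41, adjusted p = 0.204).

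Cyp2a22 and Cyp2a12, the other members of the subfamily, differed from this pattern. Cyp2a22 lay between 6.09 and 7.35 CPM in all 6 DEN+CCl4 libraries, and in the N-Ras+AKT model rose from 6.12, 13.8 and 10.1 CPM to 38.9, 42.4 and 43.2 CPM (log2 2.05, SE 0.22, adjusted p = 0.00334; difference between the effects 1.98, SE 0.31, adjusted p = 0.00824). Cyp2a12, which hydroxylates steroids and bile acids, changed by 0.62 (SE 0.22, adjusted p = 0.166) and 0.57 (SE 0.22, adjusted p = 0.076) in the DEN+CCl4 and N-Ras+AKT models, the latter passing without N-Ras+AKT control 10 (0.0468). Both were called higher in the N-Ras+AKT than in the DEN+CCl4 controls, by 0.61 and 0.62 on the log2 scale; these calls were lost without 11 of the 12 libraries for Cyp2a22 (adjusted p from 0.0543 to 0.218) and without DEN+CCl4 control 8 or 13, DEN+CCl4 depletion 9 or N-Ras+AKT control 3 or 10 for Cyp2a12 (0.0505 to 0.141). With only the groups compared both were lost (0.112 and 0.057), and that of Cyp2a22 also with voom (0.134), DESeq2 size factors (0.0502) or without both libraries that stood apart (0.0749). Summed over the subfamily, where sharing of reads within it plays no part, the log2 change was -1.19 (SE 0.28, adjusted p = 0.071) in the DEN+CCl4 model and 1.37 (SE 0.28, adjusted p = 0.0067) in the N-Ras+AKT model, and the difference was 2.56 (SE 0.39, adjusted p = 0.007).

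Cyp2b13, a female-biased hepatic P450 with a promoter that differs from that of Cyp2b9 at 2 of 300 bases, was the member with the widest range over the groups. It had 55.9, 51.6 and 52 CPM in the DEN+CCl4 controls and 6.55, 11.4 and 14.2 CPM after depletion there. Within the N-Ras+AKT model it had 0.033, 0.258 and 0.162 CPM in the controls, from 2, 14 and 8 counts, and 1.74, 1.96 and 3.7 CPM after depletion. It therefore fell in the DEN+CCl4 model (log2 -2.31, SE 0.37, adjusted p = 0.0382) and rose in the N-Ras+AKT model (log2 4.04, SE 0.52, adjusted p = 0.00334), in both without overlap. Between models, the effects differed by 6.35 (SE 0.63, adjusted p = 0.0038), and the controls of the models differed by a log2 of -8.47 (SE 0.53, adjusted p = 6.1e-06). The DEN+CCl4 call was lost without DEN+CCl4 control 7, 8 or 13 (adjusted p = 0.171, 0.122 and 0.0685), DEN+CCl4 depletion 6 or 9 (0.0948 and 0.12), N-Ras+AKT control 15 (0.0589) or N-Ras+AKT depletion 11 (0.0514), and with no filter on low counts (0.0534).

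Cyp2b9, also female-biased and the most abundant Cyp2b gene per length, shared the large gap between models. Its DEN+CCl4 controls had 522, 387 and 555 CPM, and 193, 304 and 393 CPM were left after depletion, with overlap between the groups (log2 -0.72, SE 0.52, adjusted p = 0.496). For the N-Ras+AKT model it rose from 2.54, 13.3 and 13.9 CPM to 75.8, 87.2 and 154 CPM without overlap (log2 3.42, SE 0.57, adjusted p = 0.00451). The difference between the effects was 4.14 (SE 0.76, adjusted p = 0.013) and that between the controls -5.62 (SE 0.63, adjusted p = 0.000129).

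Cyp2b10, the classical target of CAR, took the other course and passed in no comparison. It had 6.48, 4.3 and 12.6 CPM in the DEN+CCl4 controls and 187, 36.8 and 32.3 CPM after depletion, with every depletion library above the controls (log2 3.45, SE 1.04, adjusted p = 0.128). Among N-Ras+AKT libraries control 10 alone had 30.1 CPM, the other controls 2.18 and 4.18 CPM, and the depletion libraries 11.3, 26.4 and 16.1 CPM (log2 0.56, SE 0.95, adjusted p = 0.714). The subfamily sum rose by 2.51 in the N-Ras+AKT model (SE 0.60, adjusted p = 0.0156) and changed by -0.48 in the DEN+CCl4 model (SE 0.57, adjusted p = 0.699).

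**Figure D3:**
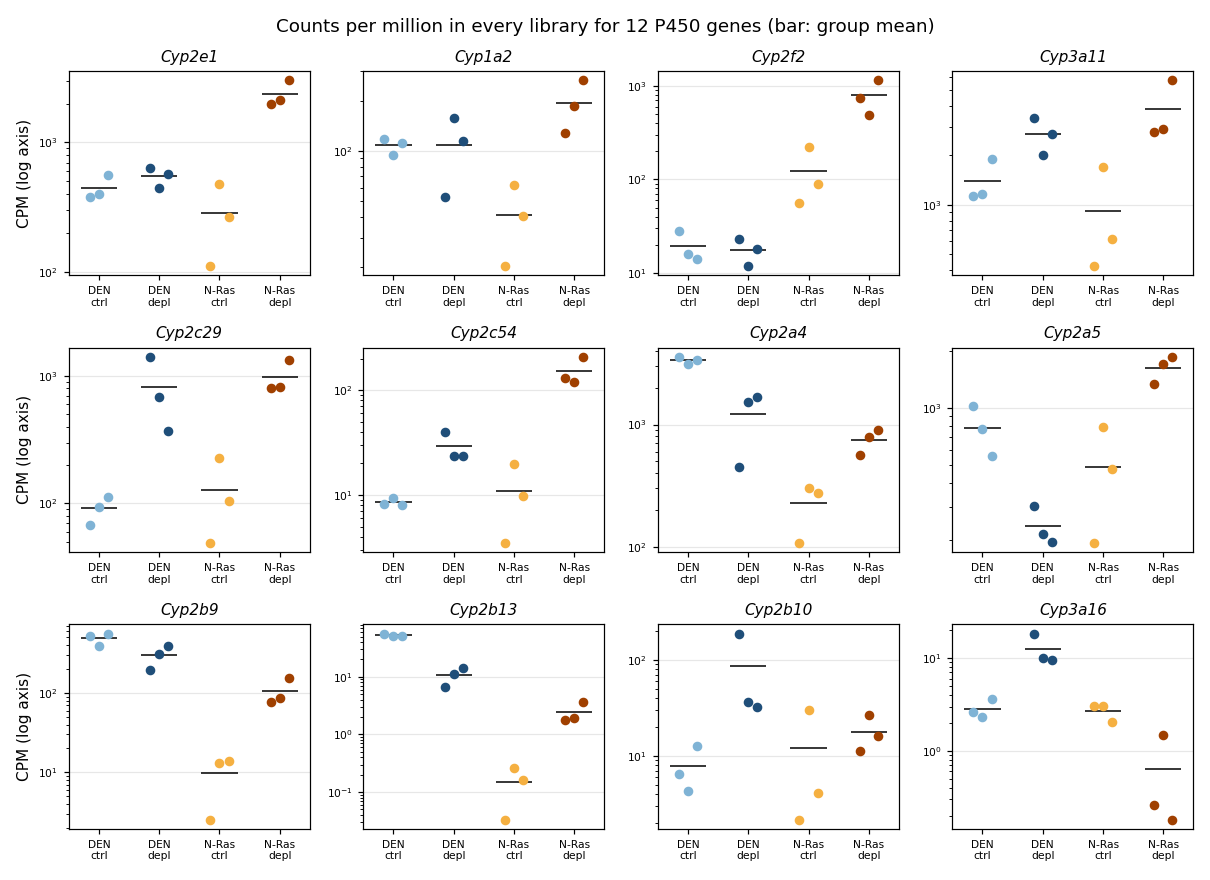
CPM (log axis) of 12 members in every library, with the group mean as a bar; panels have their own axis range. Cyp2b13 spans 0.033 to 55.9 CPM over the 12 libraries, and Cyp2b10 in DEN+CCl4 depletion 6 reached 187 CPM.

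The Cyp2c genes, which include epoxygenases of arachidonic acid and enzymes of many drugs, rose in the N-Ras+AKT model in 10 of 13 tested members, and the other 3 had log2 changes from 0.10 to 0.74. The share of all genes that rose there was 12.8%. For the DEN+CCl4 model 0 of the 13 passed with edgeR, while DESeq2 called 5 higher (Cyp2c29, Cyp2c37, Cyp2c39, Cyp2c50 and Cyp2c54) and voom 2. Of the 13, 6 had an unadjusted p under 0.05, against 18.7% of all genes. In 5 every depletion library was above every control, against 11.5% of all genes. The subfamily sum rose from 527.6 to 1018 CPM in the N-Ras+AKT controls to 2417 to 3796 CPM after depletion (log2 2.10, SE 0.30, adjusted p = 0.0033). Among DEN+CCl4 libraries it was 1126 to 1492 CPM and then 2024 to 3479 CPM (log2 1.06, SE 0.30, adjusted p = 0.0998). The groups of this sum did not overlap in either model.

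Cyp2c29, a CAR-responsive epoxygenase, had 67.8, 94.2 and 112 CPM in the DEN+CCl4 controls and 1412, 679 and 372 CPM after depletion. The groups were far apart, but the spread of the depletion libraries left the log2 change of 3.16 with an SE of 0.61 and an adjusted p of 0.058. It passed without DEN+CCl4 depletion 10 (0.0248) or N-Ras+AKT control 3 or 10 (0.0368 and 0.0467). In the N-Ras+AKT model it rose from 48.9, 226 and 104 CPM to 800, 821 and 1325 CPM (log2 2.96, SE 0.60, adjusted p = 0.00816), and the difference between the effects was -0.21 (SE 0.79, adjusted p = 0.896).

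Cyp2c37, Cyp2c50 and Cyp2c54, neighbors in the array on chromosome 19 that share 18.3% to 30.1% of their windows, resembled Cyp2c29. Cyp2c37 had 42.2, 41.1 and 67.9 CPM in the DEN+CCl4 controls and 791, 324 and 243 CPM after depletion (log2 3.17, SE 0.72, adjusted p = 0.0737), and rose from 4.54, 40.3 and 20.7 CPM to 172, 373 and 243 CPM in the N-Ras+AKT model (log2 3.59, SE 0.74, adjusted p = 0.00864). Cyp2c54 had 8.29, 9.43 and 8.1 CPM and then 40.3, 23.5 and 23.6 CPM in the DEN+CCl4 model (log2 1.76, SE 0.50, adjusted p = 0.112), and rose from 3.5, 19.6 and 9.77 CPM to 131, 119 and 207 CPM in the N-Ras+AKT model (log2 3.80, SE 0.53, adjusted p = 0.00334). Cyp2c50 changed by 2.51 (SE 0.51, adjusted p = 0.0589) in the DEN+CCl4 model and rose by 2.69 (SE 0.51, adjusted p = 0.00636) in the other. For all 3, the depletion libraries lay above the controls in both models. Without DEN+CCl4 depletion 10, the adjusted p in the DEN+CCl4 model was 0.0332 for Cyp2c50 and 0.05 for Cyp2c37, just under the threshold; without N-Ras+AKT control 3 it was 0.0364 and 0.0394.

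Cyp2c23, an arachidonic acid epoxygenase that lies outside the array and shares no window with another gene, had a negative log2 value in the DEN+CCl4 model. Its CPM there were 32.4, 33.5 and 31 in the controls and 7.73, 14.8 and 29.3 after depletion, all below the controls without passing (log2 -0.90, SE 0.45, adjusted p = 0.309). In N-Ras+AKT tumors it rose from 18.2, 40.9 and 25.4 CPM to 144, 153 and 270 CPM (log2 2.74, SE 0.46, adjusted p = 0.00452). The effects differed by 3.64 (SE 0.64, adjusted p = 0.0117).

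Cyp2c38 showed a gap between the models as well as a depletion effect. It had 0.805 to 5.29 CPM in the 6 DEN+CCl4 libraries, 14.9, 28.4 and 16.9 CPM in the N-Ras+AKT controls and 68.1, 85.7 and 110 CPM after depletion (log2 2.13, SE 0.48, adjusted p = 0.0121; without control 3 or 15, 0.0522 and 0.0529). Its N-Ras+AKT controls were higher than the DEN+CCl4 controls by 3.07 (SE 0.53, adjusted p = 0.00129). Cyp2c70, the rodent enzyme that makes muricholic acids and the Cyp2c gene with the highest mean level per length, was lower in the N-Ras+AKT controls, with 204, 207 and 97.9 CPM against 573, 549 and 601 CPM (log2 -1.76, SE 0.32, adjusted p = 0.0015). Its depletion effects did not pass in either model (DEN+CCl4 0.78 and N-Ras+AKT 0.113 as adjusted p).

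Among the remaining Cyp2c genes, Cyp2c39, Cyp2c55, Cyp2c67 and Cyp2c68 rose in the N-Ras+AKT model by 2.05, 2.62, 1.77 and 0.94 on the log2 scale. The call of Cyp2c55 was lost without control 15 or depletion 17 (adjusted p = 0.0514 and 0.0614), without both libraries that stood apart (0.054) and with no filter on low counts (0.051). Cyp2c67 also passed for the difference between the effects (1.85, SE 0.44, adjusted p = 0.0256), a call lost without DEN+CCl4 control 8 (0.0576), DEN+CCl4 depletion 9 (0.0629), N-Ras+AKT control 3 (0.0548) or 15 (0.0666) or N-Ras+AKT depletion 17 (0.0557), without both libraries that stood apart (0.0817) or with no filter on low counts (0.0632). Cyp2c68 was lower in the N-Ras+AKT than in the DEN+CCl4 controls (log2 -1.23, SE 0.20, adjusted p = 0.000612). Cyp2c40 and Cyp2c69, with 60.3% and 54.3% of their windows shared, passed in no comparison.

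Of the 7 Cyp2d genes, 2 rose in the N-Ras+AKT model, against 12.8% of all genes, and the median log2 change of the subfamily there was 0.52. Cyp2d26, the most abundant of them per length, had 253, 321 and 221 CPM in the N-Ras+AKT controls and 364, 382 and 437 CPM after depletion, above the controls without passing (log2 0.57, SE 0.19, adjusted p = 0.051); this passed without DEN+CCl4 depletion 6 (0.0231) or N-Ras+AKT control 10 (0.0251) and with DESeq2 (0.0144) or voom (0.0299). In the DEN+CCl4 model it had 746, 744 and 850 CPM and then 1283, 861 and 867 CPM (log2 0.36, SE 0.19, adjusted p = 0.337). It was lower in the N-Ras+AKT than in the DEN+CCl4 controls (log2 -1.56, SE 0.20, adjusted p = 0.000155), as were Cyp2d22 (log2 -0.85, adjusted p = 0.0076) and Cyp2d10 (log2 -0.58, adjusted p = 0.0194). The call of Cyp2d10 was lost without DEN+CCl4 control 13 or N-Ras+AKT control 3 or 15 (0.0791, 0.0578 and 0.0683).

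Cyp2d40 stood out in the subfamily, with 2.06, 4.84 and 3.05 CPM in the N-Ras+AKT controls and 23.5, 15.8 and 26.8 CPM after depletion (log2 2.73, SE 0.38, adjusted p = 0.00334). In DEN+CCl4 tumors it lay between 3.58 and 7.07 CPM in all libraries, and the difference between the effects was 2.79 (SE 0.52, adjusted p = 0.0126). Cyp2d10 rose by 0.52 (SE 0.17, adjusted p = 0.0487) in the N-Ras+AKT model, a call lost without any of 10 libraries (0.0532 to 0.185) and kept without DEN+CCl4 depletion 6 or N-Ras+AKT control 10; without both libraries that stood apart, with only the groups compared or with no filter it was lost too (0.0931, 0.0688 and 0.0509). Cyp2d9, the male-biased testosterone hydroxylase, had log2 changes of 1.26 (SE 0.50, adjusted p = 0.211) in the DEN+CCl4 model and 0.50 (SE 0.49, adjusted p = 0.498) in the N-Ras+AKT model. The subfamily sum differed by 0.52 with N-Ras+AKT depletion without passing (SE 0.21, adjusted p = 0.101) and 0.97 lower in the N-Ras+AKT than in the DEN+CCl4 controls (log2 -0.97, SE 0.22, adjusted p = 0.0042).

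Cyp2f2, the naphthalene-activating enzyme of lung club cells that in mouse liver marks the periportal zone, separated both the models and the N-Ras+AKT groups. It had 27.8, 16 and 14 CPM in the DEN+CCl4 controls and 22.9, 11.8 and 18.2 CPM after depletion, with overlap (log2 -0.12, SE 0.51, adjusted p = 0.928). Within the N-Ras+AKT model it had 56.3, 223 and 90.3 CPM in the controls and 743, 489 and 1153 CPM after depletion, without overlap (log2 2.69, SE 0.53, adjusted p = 0.00733). The controls of the models differed by 2.68 (SE 0.53, adjusted p = 0.00283). The difference between the effects, 2.81 (SE 0.73, adjusted p = 0.033), was lost without DEN+CCl4 control 7 (0.0822) or 8 (0.0566), DEN+CCl4 depletion 9 (0.0803) or 10 (0.0577), N-Ras+AKT control 3 (0.057) or 15 (0.0802) or N-Ras+AKT depletion 6 (0.0615) or 17 (0.0888), without both libraries that stood apart (0.0971) or with no filter on low counts (0.091). Of 6 genes of lung and olfactory epithelium that also make such P450s, 2 had 0 counts in all libraries and the others averaged under 1 CPM.

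Among the single-gene subfamilies, Cyp2g1, an olfactory P450, rose from 0.198, 0.865 and 0.465 CPM to 1.72, 2.66 and 2.96 CPM in the N-Ras+AKT model (log2 2.26, SE 0.52, adjusted p = 0.0109), and lay between 0.172 and 0.522 CPM in the DEN+CCl4 model. Cyp2r1, which hydroxylates vitamin D, rose from 7.46, 9.07 and 7.83 CPM to 14.2, 11.2 and 14.1 CPM (log2 0.70, SE 0.13, adjusted p = 0.00558), close to its 12.2 to 15.4 CPM in the DEN+CCl4 libraries. Cyp2u1, a hydroxylase of long-chain fatty acids, rose from 1.7, 3.33 and 2.06 CPM to 5.57, 3.81 and 8.03 CPM (log2 1.30, SE 0.36, adjusted p = 0.0255), while DEN+CCl4 controls had 17.7, 14.9 and 7.61 CPM and depletion libraries 7.94, 9.66 and 7.22 CPM. For Cyp2r1 and Cyp2u1 the N-Ras+AKT groups did not overlap, the difference between the effects passed (0.82, adjusted p = 0.0199, and 1.99, adjusted p = 0.0289), and the N-Ras+AKT controls were lower than the DEN+CCl4 controls (log2 -0.79, adjusted p = 0.000825, and -2.50, adjusted p = 0.000453).

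Several of these calls rested on single libraries. The rise of Cyp2u1 was lost without N-Ras+AKT control 3, control 15, depletion 6 or depletion 17 (0.0933, 0.0885, 0.0525 and 0.113), and its difference between the effects without any of 9 libraries (0.0533 to 0.074); without both libraries that stood apart the values were 0.117 and 0.111. The difference for Cyp2r1 was lost without DEN+CCl4 depletion 9, N-Ras+AKT control 15 or N-Ras+AKT depletion 17 (0.0521, 0.0511 and 0.0561). Cyp2s1, an epithelial P450, had 1.12, 0.313 and 0.808 CPM in the N-Ras+AKT controls and 0, 0.396 and 0.0902 CPM after depletion, with overlap (log2 -2.17, SE 0.79, adjusted p = 0.0666). The change passed without depletion 11 (0.011) or control 10 (0.0427), and with DESeq2 (0.031) or voom (0.0332).

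The Cyp2j genes, epoxygenases of arachidonic acid, showed no call for depletion in either model among the 3 tested with edgeR. In each model 1 of them had an unadjusted p under 0.05. That held for 18.7% of all genes in the DEN+CCl4 model and 37.3% in the N-Ras+AKT model. DESeq2 and voom also called 0. Cyp2j5, an epoxygenase of kidney and liver, had 232, 224 and 231 CPM in the N-Ras+AKT controls and 89.6, 97.9 and 87.1 CPM in the DEN+CCl4 controls, without overlap (log2 1.32, SE 0.26, adjusted p = 0.0021). After depletion it had 318, 272 and 487 CPM in the N-Ras+AKT model (log2 0.65, SE 0.26, adjusted p = 0.0875; without DEN+CCl4 depletion 6 or 10 or N-Ras+AKT depletion 11 it was 0.0435, 0.0437 and 0.049) and 58.9, 80.8 and 125 CPM in the DEN+CCl4 model. Cyp2j9 was likewise higher in the N-Ras+AKT controls (log2 1.31, SE 0.23, adjusted p = 0.00108), and Cyp2j6 lay between 68.3 and 90.2 CPM in all 12 libraries.

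Cyp3a11, the main adult Cyp3a enzyme and a target of PXR, was the most abundant Cyp3a gene per length. It had 1130, 1170 and 1892 CPM in the DEN+CCl4 controls and 3383, 2001 and 2708 CPM after depletion, all above the controls without passing (log2 0.95, SE 0.48, adjusted p = 0.322). For the N-Ras+AKT model it rose from 423, 1690 and 619 CPM to 2788, 2900 and 5771 CPM (log2 2.07, SE 0.50, adjusted p = 0.0149), a call lost without control 15 or depletion 17 (0.0601 and 0.0623), or without both libraries that stood apart (0.0622). Between models, the effects differed by 1.12 (SE 0.68, adjusted p = 0.302), and passed without N-Ras+AKT control 10 (0.0324).

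Cyp3a16, a fetal and female-biased member, was the single member whose difference between the effects passed in the negative direction. It had 2.63, 2.29 and 3.59 CPM in the DEN+CCl4 controls and 18.3, 10 and 9.65 CPM after depletion, all above the controls (log2 2.16, SE 0.57, adjusted p = 0.0932). Among N-Ras+AKT libraries it fell from 3.04, 3.06 and 2.06 CPM to 0.263, 1.48 and 0.18 CPM (log2 -2.07, SE 0.61, adjusted p = 0.0321). The difference between the effects was -4.23 (SE 0.83, adjusted p = 0.0144). The fall was lost without N-Ras+AKT control 3, 10 or 15 (0.0833, 0.0626 and 0.055) or depletion 6 or 17 (0.0947 and 0.0943), without both libraries that stood apart (0.0686), with no filter on low counts (0.0916) and with only the groups compared (0.0818). The DEN+CCl4 change passed without N-Ras+AKT depletion 11 (0.0247) and with DESeq2 (0.00401) or voom (0.0474).

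Of the other 7 Cyp3a genes, 0 passed for depletion in either model with edgeR. An unadjusted p under 0.05 was found for 3 in the DEN+CCl4 model and 1 in the N-Ras+AKT model. Such a p was found for 18.7% and 37.3% of all genes. DESeq2 called Cyp3a25 in both models. In the N-Ras+AKT model Cyp3a25 also passed without DEN+CCl4 depletion 6 (0.00904), without both libraries that stood apart (0.029) and with only the groups compared (0.0394). Cyp3a41a, female-biased and inseparable from Cyp3a41b by sequence, had 265, 336 and 117 CPM in the N-Ras+AKT controls and 40.5, 41.1 and 67.8 CPM in the DEN+CCl4 controls (log2 2.27, SE 0.59, adjusted p = 0.0111). Cyp3a59 was higher in the N-Ras+AKT controls too, with 15.4, 16.2 and 12.7 CPM against 4.24, 5.65 and 5.9 CPM (log2 1.48, SE 0.24, adjusted p = 0.000676), and Cyp3a57 was lower (log2 -1.70, SE 0.34, adjusted p = 0.00224). The subfamily sum rose by 1.65 in the N-Ras+AKT model (SE 0.42, adjusted p = 0.0172) and changed by 0.98 in the DEN+CCl4 model (SE 0.41, adjusted p = 0.231).

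Counted by subfamily sum, 11 of 14 subfamilies passed for depletion in the N-Ras+AKT model, 10 higher and Cyp1b lower, where 23.6% of all features of that fit passed. Within the DEN+CCl4 model 0 of 14 passed with edgeR (0.383% of features), and 3 had an unadjusted p under 0.05; other tools were not run on the sums. For the difference between the effects 7 passed, all positive (Cyp1a, Cyp2a, Cyp2b, Cyp2e, Cyp2f, Cyp2r and Cyp2u; 11.6% of features), and this number was 2 to 9 when single libraries were left out.

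**Figure D4:**
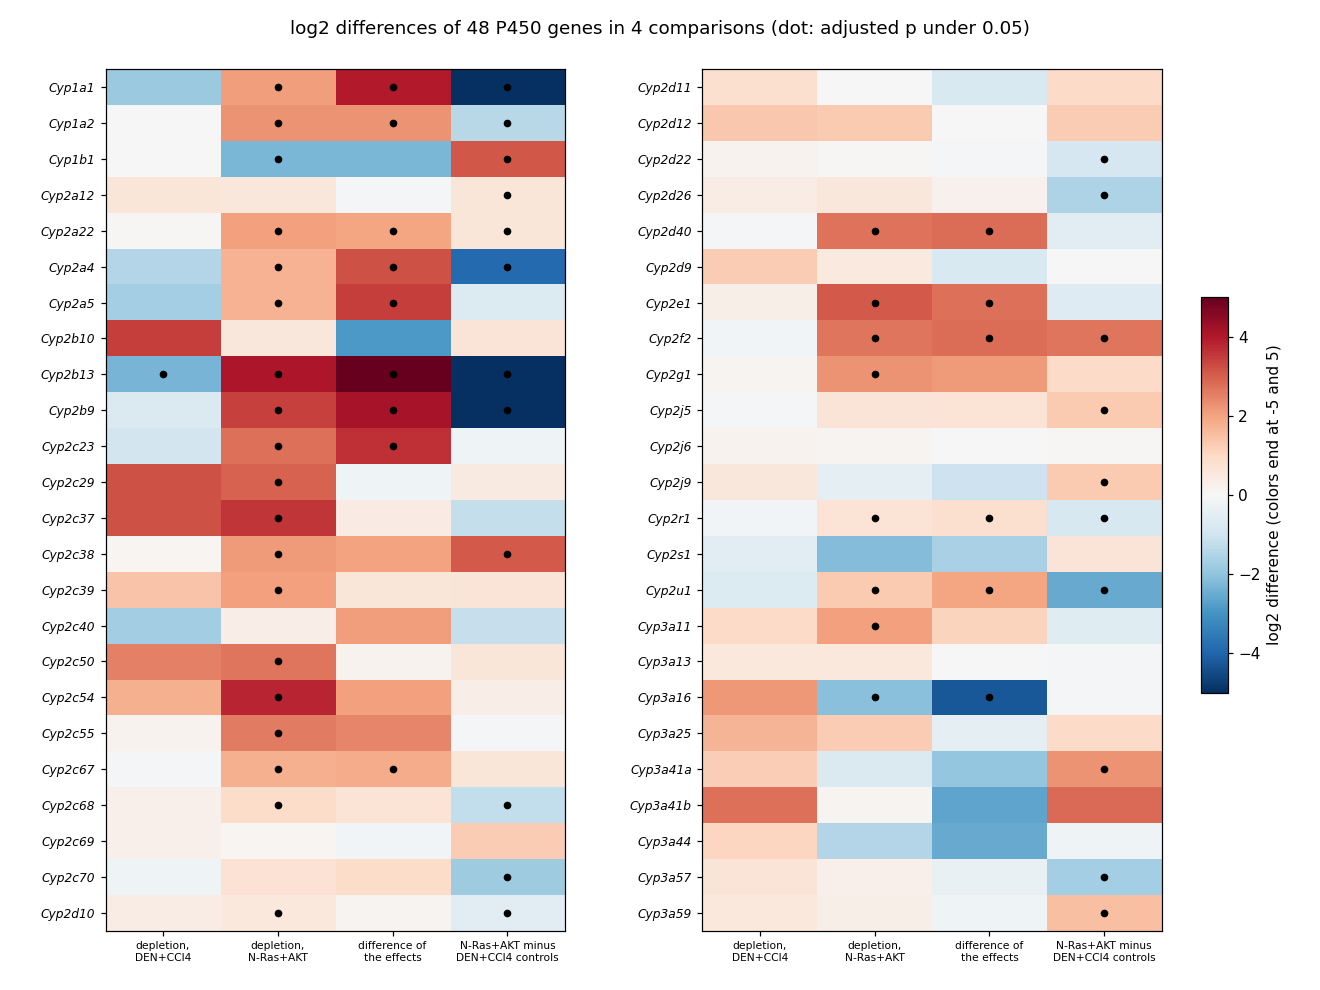
Log2 differences of the 48 tested members in 4 comparisons (columns), ordered by subfamily, with red for higher and blue for lower and a dot where the adjusted p was under 0.05. The second column carries 27 dots and the first column 1, and the Cyp2a4, Cyp2a5, Cyp2b9 and Cyp2b13 rows change color between them.

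Grouped by known zonation and induction, the pericentral members (Cyp2e1, Cyp1a2, Cyp2a5, Cyp2c29, Cyp2c37, Cyp2c50, Cyp2c54 and Cyp3a11) all rose in the N-Ras+AKT model, 8 of 8 with a median log2 change of 2.82. For the DEN+CCl4 model their median was 1.35 and 0 passed with edgeR. There 5 of the 8 had an unadjusted p under 0.05, DESeq2 called 5 (4 higher and Cyp2a5 lower), voom called 2, and 5 had all depletion libraries above the controls. Of the 6 members induced through CAR or PXR, 4 rose in the N-Ras+AKT model, and in the DEN+CCl4 model, with a median of 2.06 and 4 members without overlap, 0 passed with edgeR, 3 had an unadjusted p under 0.05, DESeq2 called 2 and voom 1. Of the 10 female-biased members, 3 rose and 1 fell in the N-Ras+AKT model. In the DEN+CCl4 model 1 fell with edgeR, where 0.37% of all genes passed, and their median log2 change was 0.66. There 6 of the 10 had an unadjusted p under 0.05. DESeq2 called 1 higher and 2 lower, and voom 1 higher and 1 lower. The summed level of these 10 was 3681 to 4289 CPM in the DEN+CCl4 controls against 454 to 776 CPM in the N-Ras+AKT controls. Cyp2a4 made up most of this sum, and the other 9 summed to 539 to 899 CPM and 182 to 476 CPM. By gene, 1 of the 10 was higher and 3 were lower in the N-Ras+AKT controls, with a median log2 difference of -0.13. Over all genes, 20.8% were higher and 19.8% lower there, or 40.6% in either direction, and the calls of these members together are near that share. Of the 3 members listed as male-biased (Cyp2d9, Cyp2d10 and Cyp2u1), 2 rose in the N-Ras+AKT model, Cyp2d10 and Cyp2u1. Over all genes, 12.8% rose and 10.8% fell with depletion in that model. In the DEN+CCl4 model 18.7% of all genes had an unadjusted p under 0.05, and 11.5% had all depletion libraries above the controls.

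The partners and regulators of these enzymes were counted in the same way. With depletion in the N-Ras+AKT model 12.8% of all genes rose and 10.8% fell. Among the redox partners and the heme genes 0 fell there. Of 6 redox partners, 4 rose in the N-Ras+AKT model; Por, the reductase itself, had a log2 change of 1.42 (SE 0.47, adjusted p = 0.0512) there and of 1.20 (SE 0.47, adjusted p = 0.206) in the DEN+CCl4 model, where depletion 6 had 1301 CPM against 443 and 339 CPM in the others. Of 10 genes of heme synthesis and breakdown 5 rose in the N-Ras+AKT model, and Alas1, the rate-limiting enzyme of heme synthesis, had a log2 change of 0.74 (SE 0.28, adjusted p = 0.0755). Of 24 tested regulators 6 rose and 1 fell, 29.2% against 23.7% of all genes. Nr1i3 rose from 9.44, 26.2 and 11.1 CPM to 57.7, 92.3 and 87.6 CPM (log2 2.35, SE 0.43, adjusted p = 0.00573), Rxra, its partner, by 0.65 (adjusted p = 0.0137) and Hnf4a by 0.56 (adjusted p = 0.0188), whereas Nr1i2 and Ahr had log2 changes of 0.21 and 0.14 (adjusted p = 0.462 and 0.782).

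Other hepatocyte enzymes and pericentral markers moved beside the P450s. In the N-Ras+AKT model, 22 of 29 other phase I enzymes rose, with a median log2 change of 1.13, and Ces3b, a carboxylesterase, had the largest rise (3.40, SE 0.71, adjusted p = 0.00927). Of 10 pericentral markers outside the P450s 8 rose, among them Glul, the glutamine synthetase of the innermost pericentral hepatocytes, by 2.63 (SE 0.36, adjusted p = 0.00334). Of 10 periportal markers 3 rose, 5 of the 10 had negative log2 values, and the median was 0.22. Of 10 general hepatocyte markers 1 rose in that model. Over all genes, 12.8% rose and 10.8% fell in this comparison. Among DEN+CCl4 libraries 0 of the 29 phase I enzymes passed with edgeR, while 13 had an unadjusted p under 0.05, 13 had all depletion libraries below the controls, and DESeq2 called 8 and voom 1, all lower; over all genes 18.7% had such a p and 16% such a separation. Between the controls, 15 of the 24 regulators and 9 of the 10 hepatocyte markers were lower in the N-Ras+AKT model, against 19.8% of all genes.

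Markers of other cell types changed in the same libraries. In N-Ras+AKT tumors 8 of 10 macrophage markers rose, with summed levels of 165 to 350 CPM in the controls and 525 to 719 CPM after depletion, and 5 of 9 tested lymphocyte markers rose from levels under 1 CPM on average in 9 of 10. Over all genes, 12.8% rose in this comparison. In the DEN+CCl4 model 0 of 10 endothelial markers passed with edgeR, while 9 had an unadjusted p under 0.05 and all depletion libraries below the controls, and DESeq2 called 9 and voom 1, all lower. Erythroid genes had a median log2 change of -2.89 there, with 6 of 6 at an unadjusted p under 0.05 and below all controls, and lymphocyte markers one of -1.90, with 7 of 9 at such a p, against 18.7% of all genes. With edgeR 0 of either list passed, voom called 0, and DESeq2 called 4 erythroid genes and 2 lymphocyte markers, all lower. The part of these cells in the P450 results was not tested.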

How the data were processed

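Bulk RNA-seq of tumor tissue was used in 12 libraries, 3 in each of 4 groups, with groups and replicate numbers from the sample titles. The values are whole-number counts per gene, deposited by the authors as 1 table and not normalized. The submitters' processing notes name Cell Ranger 3.0.2, RSEM 1.3.1, STAR 2.7.3 and the build mm10 without saying what each was used for, so the deposited counts may be rounded RSEM estimates that split reads between close copies. Nothing in the sources used here gives the annotation release, the strand setting or any filter. Symbols and positions came from GENCODE M21 on GRCm38 (55154 of 55335 identifiers matched; the other 181 held 0.00642% of counts), and promoters from RefSeq on GRCm38.p6.

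Genes were filtered with filterByExpr, which left 17013, and scaled with TMM factors (0.773 to 1.323). A single model with 1 mean per group was fitted to the 12 libraries in edgeR 4.0.16 under R 4.3.3, by the robust quasi-likelihood method with 8 residual degrees of freedom and a common coefficient of biological variation of 0.238. The comparisons were depletion minus control within each model, the N-Ras+AKT effect minus the DEN+CCl4 effect, and the controls of both models. Tests were two-sided; passing meant p under 0.05 after Benjamini-Hochberg adjustment across the 17013 genes. SE values are those implied by the F statistic. Levels are CPM on the TMM-adjusted library size, in figures and text, and CPM per kilobase of the exon union where genes are compared. For subfamily sums, the counts of a subfamily were added and refitted with all other genes. Shared sequence was the share of 50-base windows of a gene's transcripts found in any other gene's transcripts. The fits were tested on simulated data.

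Alternatives were DESeq2 1.42.0, limma voom 3.58.1, DESeq2 size factors, no filter, only the groups compared, leaving out each library, leaving out both libraries that stood apart, subfamily sums, and the longest transcript in place of the exon union. The genes with values per library were Cyp2e1, Cyp1a2, Cyp2b13, Cyp2f2, the highest per length in each subfamily, those passing in the DEN+CCl4 model and the 5 largest changes per direction among those passing in the other comparisons; further members were given beside them after their values were seen. The members and the gene lists were chosen with earlier results of these data known. Nothing in the labels says that libraries of a group came from separate animals, so p-values measure the spread between these libraries, which may be technical. A count of 0 in 1 library allows up to 3 counts, for counting error only.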

Additional observations from a re-analysis of the deposited data

Results flagged for a closer look

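For 15 members the effect of depletion differed between the models by the test of the difference itself, given here as the N-Ras+AKT effect minus the DEN+CCl4 effect on the log2 scale. It was positive for 14: Cyp2b13 6.35, Cyp2b9 4.14, Cyp1a1 3.96, Cyp2c23 3.64, Cyp2a5 3.46, Cyp2a4 3.18, Cyp2f2 2.81, Cyp2d40 2.79, Cyp2e1 2.76, Cyp1a2 2.24, Cyp2u1 1.99, Cyp2a22 1.98, Cyp2c67 1.85 and Cyp2r1 0.82. It was negative for Cyp3a16, at -4.23. Chemical, oncogenes and collection day differ between the models together and cannot be told apart.

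Cyp2b13 fell in the DEN+CCl4 model and rose in the N-Ras+AKT model, the single member called in both directions. Cyp2a5, Cyp2a4, Cyp1a1, Cyp2c23 and Cyp3a16 had all depletion libraries on one side of the controls in the DEN+CCl4 model and on the opposite side in the N-Ras+AKT model, and with edgeR passed in the latter; with DESeq2, Cyp2a5, Cyp2a4, Cyp1a1 and Cyp3a16 passed in the DEN+CCl4 model too (adjusted p = 0.00144, 0.02, 0.0024 and 0.00401).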

How the results depend on the processing

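In the DEN+CCl4 model the count of 1 member was 11 with DESeq2, 4 with limma voom, 0 with no filter on low counts and 0 by subfamily sums, and 0 to 5 when single libraries were left out. For N-Ras+AKT depletion, leaving out single libraries gave 18 to 31 members (27 in the full fit), for the difference between the effects 10 to 18 (15) and between controls 18 to 23 (22); by subfamily sums the difference gave 2 to 9 (7). Single values were followed for members that passed or changed by at least 0.5 on the log2 scale: under the alternatives 2282 kept direction and call, 128 lost the call, 69 gained it and 5 reversed, of members that passed neither way. Cyp3a13 after DEN+CCl4 depletion was -0.149 to 0.808 without single libraries (lowest without depletion 6) and -0.145 without both libraries that stood apart. Between the controls, Cyp2b10 was -0.141 with limma voom and -1.30 to 1.18 without single libraries, and Cyp2c50 -0.139 to 0.978, both lowest without N-Ras+AKT control 10. The cause of the tool differences was not tested. A fit of only the groups compared could not be had for the difference, which needs all 4 groups. DESeq2 size factors moved the median of all genes by at most 0.009 and changed the sign of 0 members. No paired analysis was possible because the groups compared share fewer than 2 replicate numbers.

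With 3 libraries a group, a log2 change of 0.95 (Cyp3a11 in the DEN+CCl4 model) could not be told from the spread between libraries. Reads of close copies cannot be assigned with certainty, which touches Cyp3a41a, Cyp3a41b and the Cyp2c40 group most. Members under 1 CPM rest on few counts.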

Other observations

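P450 genes outside families 1 to 3, which include enzymes of bile acids, fatty acids and steroids, moved in part beside the members. Of 28 tested, 12 rose and 2 fell with depletion in N-Ras+AKT tumors, against 12.8% and 10.8% of all genes, and the median log2 change was 0.89. In the DEN+CCl4 model 0 passed with edgeR and 7 had an unadjusted p under 0.05, against 18.7% of all genes; the other tools were not counted for this list. Cyp17a1, the steroid hydroxylase and lyase, was chosen after its values were seen: it had 31.3 ± 5.28 CPM in the DEN+CCl4 controls and 203 ± 116 CPM after depletion there (SD, n = 3; log2 2.70, SE 0.59, adjusted p = 0.0696), against 241 ± 131 and 117 ± 86.4 CPM in the N-Ras+AKT model. The difference between its effects was -3.74 (SE 0.81, adjusted p = 0.0192).

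Of 10 genes of growth hormone signaling and of sex-biased transcription, 5 rose with the N-Ras+AKT depletion and 0 fell. Among all genes these shares were 12.8% and 10.8%. Cux2, a factor of the female liver pattern, rose most of these 10 (log2 3.66, SE 0.73, adjusted p = 0.00804), and Stat5b rose by 0.72 (SE 0.15, adjusted p = 0.00853). Among 13 female-biased hepatocyte genes outside these P450 families 4 rose and 2 fell in that model, and among 11 tested male-biased genes 4 rose. Over all genes, 12.8% were higher and 10.8% lower. The 2 that fell were Cyp39a1 and Prom1, and Prom1 marks the cells that the design removes, so its fall is no result about sex-biased genes.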
